A study of Mus musculus with 6 samples.

Results

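The BCL2 family genes are described here in cultured mouse female germline stem cells (FGSCs) with and without knockdown of CTCF. The members were chosen by symbol, with earlier results of these data known. They comprised the anti-apoptotic genes Bcl2, Bcl2l1, Bcl2l2 and Mcl1, the effector gene Bak1, and the BH3-only genes Bcl2l11, Bid, Bad, Bmf and Bik. These are 10 of the 24732 gene symbols in the expression table, and all 10 were found in it and in the count table. A further 16 genes of the same family were listed for comparison.

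Proteins of the BCL2 family decide whether the outer membrane of the mitochondrion stays closed. The anti-apoptotic members hold the effectors BAX and BAK1 in check, the BH3-only members bind and neutralise the anti-apoptotic proteins or activate the effectors directly, and activated effectors open pores through which cytochrome c leaves the mitochondrion and starts the caspase cascade. The balance between these groups is known to set how many germ cells survive in the fetal and neonatal ovary.

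RNA-seq was performed on 3 control samples and 3 samples of the shCTCF group, in which CTCF, a DNA-binding protein that shapes chromatin loops, was silenced by a short hairpin RNA delivered with a lentivirus. All samples carried the strain label C57BL/6, came from long-term culture on inactivated STO fibroblast feeders, and were kept in medium with leukemia inhibitory factor, EGF, bFGF and GDNF. By the study's methods the FGSCs came from neonatal Ddx4-Cre;mT/mG ovaries and infected cells were selected with puromycin. What the control cells received, and whether replicates were separate cultures, is not given in the sources used here, so that p-values measure the spread between these samples, which may be technical. Ctcf itself was at 58.2, 56.1 and 53.5 FPKM (fragments scaled to the length of the transcript and to the depth of the library) in the controls and at 0.74, 0.55 and 0.629 FPKM in the shCTCF group, which is 98.9% lower (log2 fold change -5.12, SE 0.09, adjusted p = 1.1e-08, limma). It had 0 counts in all 6 samples, controls included, so the counts give no second measurement of the knockdown and the fall in RNA rests on FPKM alone. At the protein level, the study examined the knockdown by Western blot of CTCF.

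Total counts lay between 5322636 and 7044272 fragments except in control replicate 2, which had 1686052. The study found Oct4 (Pou5f1), Fragilis, Mvh (Ddx4), Stella (Dppa3), Gfra1 and Dazl in its long-term FGSC cultures by RT-PCR. It also stained them for MVH protein. In the FPKM of these 6 samples the germline markers did not bear out the label. There, 8 of 9 germline genes, Ddx4, Dazl, Dppa3 and Pou5f1 among them, were under 1 FPKM in every sample. The summed level of the 9 genes was 0.069 to 1.274 FPKM in the controls and 11.318 to 12.243 FPKM in the shCTCF group, where Ifitm3 made up most of it. By contrast, 6 of 15 leukocyte markers were above 1 FPKM, namely Ptprc, Spi1, Ctsg, Cpa3, Kit and Gata2, and their list summed to 1652 to 1696 FPKM in the controls and to 1599 to 1650 FPKM in the shCTCF group. Within it Kit was at 541 to 612 FPKM in the controls and 771 to 800 FPKM in the shCTCF group, while Ctsg, a granule protease gene, was at 131 to 169 FPKM and then at 1.994 to 2.531 FPKM. Of 11 fibroblast markers, 6 were under 1 FPKM in all samples, and the list summed to 12.297 to 13.411 FPKM in the controls and to 8.498 to 8.938 FPKM in the shCTCF group. All 5 ovarian somatic markers were under 1 FPKM. The part of these cell type markers in the results on the BCL2 family was not tested, and in bulk RNA a change in the number of cells of a type cannot be told apart from a change of RNA per cell.

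The sequences before the starts of 3 members are shown first, because Bcl2l11 and Bcl2l1 have transcripts from different starts that are described further on, and because Mcl1 is a member that rose with 1 start and 1 transcript accession. Each is the 250 bases before a start in RefSeq (assembly GRCm38.p6), written on the strand of the gene. Capitals mark a match to GTAAACA, the core bound by FOXO factors, which are known to drive Bcl2l11.
Bcl2l11, outer start, chr2:128125788-128126037, plus strand: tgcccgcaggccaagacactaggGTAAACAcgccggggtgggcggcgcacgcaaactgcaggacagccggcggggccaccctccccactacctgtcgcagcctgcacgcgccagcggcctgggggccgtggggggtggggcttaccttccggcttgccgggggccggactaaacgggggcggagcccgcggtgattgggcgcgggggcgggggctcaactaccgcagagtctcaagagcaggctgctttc
Bcl2l11, inner start 1537 bases further in, chr2:128127325-128127574, plus strand: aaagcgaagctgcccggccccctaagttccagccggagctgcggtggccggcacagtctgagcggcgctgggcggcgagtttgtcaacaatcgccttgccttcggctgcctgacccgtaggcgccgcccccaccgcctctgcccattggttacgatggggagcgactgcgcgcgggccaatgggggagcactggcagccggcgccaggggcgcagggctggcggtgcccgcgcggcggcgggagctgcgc
Bcl2l1, outer start, chr2:152831729-152831978, minus strand: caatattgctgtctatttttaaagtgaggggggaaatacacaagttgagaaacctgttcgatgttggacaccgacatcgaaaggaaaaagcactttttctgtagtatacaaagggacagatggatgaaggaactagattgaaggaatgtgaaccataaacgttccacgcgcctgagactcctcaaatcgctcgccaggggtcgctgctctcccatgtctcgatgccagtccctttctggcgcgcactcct
Bcl2l1, inner start 1011 bases further in, chr2:152830718-152830967, minus strand: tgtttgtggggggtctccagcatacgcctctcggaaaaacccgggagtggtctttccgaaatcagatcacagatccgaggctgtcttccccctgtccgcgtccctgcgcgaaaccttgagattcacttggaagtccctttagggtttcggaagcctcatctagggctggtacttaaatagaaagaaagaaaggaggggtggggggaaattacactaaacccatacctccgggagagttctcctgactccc
Mcl1, chr3:95658471-95658720, plus strand: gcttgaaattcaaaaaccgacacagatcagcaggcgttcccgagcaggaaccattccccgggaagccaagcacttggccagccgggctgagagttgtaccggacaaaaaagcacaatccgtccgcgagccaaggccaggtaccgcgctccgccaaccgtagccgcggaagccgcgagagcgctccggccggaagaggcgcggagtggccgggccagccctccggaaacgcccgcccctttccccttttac

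RefSeq windows were found for 9 of the 10 members. The FOXO match lies 227 bases before the outer start of Bcl2l11 and is absent from its inner window, and the same letters on either strand occurred in 3.17% of all 32851 windows of this length. The letters TTCNNNGAA, to which STAT factors bind, occurred on either strand in 7.02% of all windows and in none of the members' windows. Both Bcl2l11 windows were rich in G and C, at 72.0% and 73.2%, as was that of Mcl1 at 64.4%, against a median of 52.4% over all windows. The Bcl2l1 windows shown were closer to that median, at 47.6% for the outer and 53.2% for the inner start.

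Among the 10 members, 6 were higher and 1 was lower in the shCTCF group, Bak1 did not pass the test, and Bcl2l2 and Bik were too low to be tested. Of the 8 tested members, 7 therefore passed an adjusted p of 0.05 in a limma fit of log2(FPKM + 1) over the 9976 genes that averaged 1 FPKM or more, against 73% of all genes tested. Higher calls made up 28.8% of all genes and lower calls 44.2%. At 2-fold or more, 26.2% of all genes passed, 11.3% as higher, and among the members Mcl1, Bcl2l1 and Bmf did so, while none was lower by that much. The median log2 fold change was 0.72 for the tested members and -0.17 over all genes. Relative to that median gene, the changes were 1.76 for Bcl2l1, 1.6 for Bmf, 1.37 for Mcl1, 1.17 for Bcl2, 0.61 for Bcl2l11, 0.57 for Bad, 0.17 for Bak1 and -0.78 for Bid. The controls and the shCTCF group did not overlap in 7 of the 8, against 76.6% of all genes. With nearly 3 in 4 genes past the threshold, a call by itself sets a member little apart from other genes. Fold changes on FPKM are differences of log2(FPKM + 1), so those of genes with low values come out too small.

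**Figure D1:**
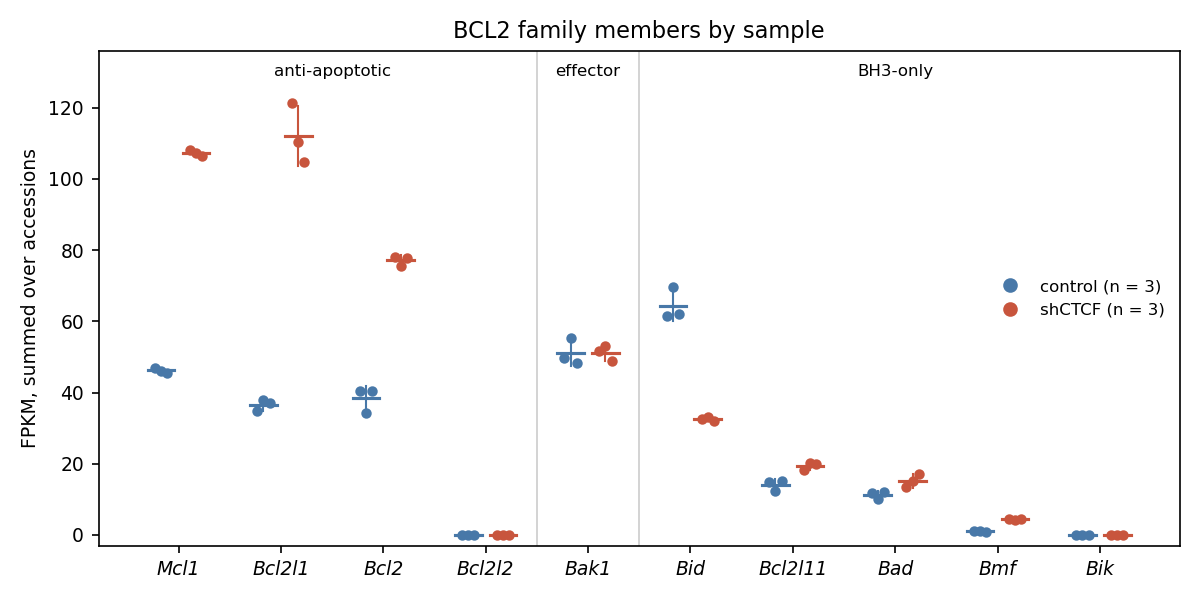
Level of each of the 10 members in FPKM, summed over transcript accessions, in 3 control and 3 shCTCF samples; points are samples, horizontal bars means and vertical bars SD. Mcl1, Bcl2l1 and Bcl2 were higher in every shCTCF sample than in any control, Bid was lower, and Bak1 overlapped between the groups.

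Of the 4 anti-apoptotic members, Mcl1, Bcl2l1 and Bcl2 rose. Mcl1, a short-lived protein that many haematopoietic and stem cells need to survive, was at 46.9, 46.2 and 45.6 FPKM in the controls and at 108.0, 107.3 and 106.4 FPKM in the shCTCF samples. The replicates lay within a few FPKM of each other and the groups were far apart, with means of 46.24 ± 0.683 and 107.2 ± 0.796 FPKM (SD, n = 3 each). This is 2.32 times the control level (log2 fold change 1.20, SE 0.06, adjusted p = 9.7e-07, limma). Mcl1 has 1 accession, and its 1939, 472 and 1994 fragments in the controls, against 3999, 3553 and 4499 in the shCTCF samples gave a log2 fold change of 1.40 (SE 0.07, adjusted p = 3.7e-09) in edgeR's quasi-likelihood test on the counts.

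Bcl2l1 encodes BCL-XL, which guards the mitochondrion in many cell types. It stood at 34.8, 38.0 and 37.1 FPKM in the controls and at 121.4, 110.3 and 104.8 FPKM in the shCTCF samples, so that the lowest shCTCF sample was well above the highest control. The means were 36.61 ± 1.66 and 112.2 ± 8.46 FPKM, a ratio of 3.06 (log2 fold change 1.59, SE 0.08, adjusted p = 1.1e-06, limma), which was the largest change among the members on the log2(FPKM + 1) scale. Bcl2l1 could hardly be counted, because a fragment overlapping several accessions was assigned to none and only 19.3% of its 3256 exon bases belong to 1 accession. The assigned fragments numbered 3, 0 and 2 in the controls, against 11, 12 and 11 in the shCTCF samples. The edgeR test on them passed the threshold (adjusted p = 0.001). However, Bcl2l1 passed the filter on low counts only through the shCTCF group, so this call adds no support.

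Bcl2, the founding member of the family, was at 40.4, 34.3 and 40.4 FPKM in the controls and at 78.0, 75.6 and 77.9 FPKM in the shCTCF samples. Control replicate 2 was the lowest of its group, and all 3 shCTCF samples lay above every control. The means of 38.37 ± 3.55 and 77.17 ± 1.38 FPKM gave a ratio of 2.01 (log2 fold change 0.99, SE 0.08, adjusted p = 1.6e-05, limma). On counts the change was smaller, at 0.66 (SE 0.10, adjusted p = 6.8e-05, edgeR), from 2718, 538 and 2852 fragments to 3247, 2724 and 3709.

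Bcl2l2, which encodes BCL-w, was near 0 throughout. It was listed at 0.027, 0 and 0.025 FPKM in the controls and at 0 in the shCTCF samples, and its 2, 0 and 4 control fragments stood against none in the shCTCF group. A count of 0 there allows up to 3 fragments, or 0.442 to 0.564 CPM (counts scaled to the library), so a difference was not detectable at this depth.

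Bak1, the effector among the members, did not pass the test. Its level was 49.8, 55.4 and 48.2 FPKM in the controls and 51.6, 53.0 and 48.8 FPKM in the shCTCF samples, so the groups overlapped. The log2 fold change was 0.00 (SE 0.07, adjusted p = 0.99, limma). Only 1.0% of its exon bases could be counted and it had 1 fragment in all, so the counts give no second measurement. Since the median gene fell by 0.17 on the log2 scale, Bak1 lay 0.17 above it, and with the samples scaled to the same median its log2 fold change was 0.18 (adjusted p = 0.072, limma).

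Bid, which links death receptors to the mitochondrion once caspase-8 has cut it, was the member that fell. It was at 61.6, 69.6 and 62.2 FPKM in the controls and at 32.7, 33.2 and 32.1 FPKM in the shCTCF samples, and each shCTCF sample lay far below each control. The mean was 49.3% lower (64.45 ± 4.45 and 32.67 ± 0.54 FPKM, log2 fold change -0.96, SE 0.07, adjusted p = 1.0e-05, limma). The counts gave -0.77 (SE 0.08, adjusted p = 2.4e-06, edgeR) from 1391, 400 and 1531 against 682, 626 and 764 fragments. The gene (chr6:120843137-120866842 in mm9, minus strand) ends 276 bases from the end of its neighbour Bcl2l13, which is read from the other strand and was also lower, as given further on.

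The other tested BH3-only members were higher. Bcl2l11 encodes BIM, which binds all anti-apoptotic proteins of the family, and it was at 14.9, 12.3 and 15.1 FPKM in the controls and at 18.2, 20.2 and 19.9 FPKM in the shCTCF samples. The groups did not overlap, but the ratio of means was only 1.38 (14.10 ± 1.53 and 19.44 ± 1.09 FPKM, log2 fold change 0.44, SE 0.10, adjusted p = 0.0041, limma). Bad, whose protein is held in the cytosol when growth factor signalling phosphorylates it, was at 11.7, 10.1 and 12.01 FPKM in the controls and at 13.4, 15.1 and 17.2 FPKM in the shCTCF samples, a ratio of 1.35 (log2 fold change 0.40, SE 0.11, adjusted p = 0.013, limma). Without shCTCF replicate 3, the highest sample, the value for Bad was 0.31 with an adjusted p of 0.051. Bad had 1 to 5 fragments per sample, as 8.3% of its exon bases could be counted, and the Bad accession with the longer first part overlaps Gpr137 on the other strand by 517 bases.

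Bmf, a BH3-only protein known to be released from the cytoskeleton under stress, was low in both groups and had the largest ratio among the members. It was at 1.019, 1.144 and 0.842 FPKM in the controls and at 4.42, 4.12 and 4.56 FPKM in the shCTCF samples. The means were 1.002 ± 0.152 and 4.367 ± 0.225 FPKM, a ratio of 4.36 (log2 fold change 1.42, SE 0.11, adjusted p = 1.5e-05, limma). Its counts were 1, 0 and 1 against 1, 7 and 1 fragments and were not tested. Bik, a BH3-only gene, was listed at 0 FPKM in every sample, with 2 fragments in shCTCF replicate 2, 1 in replicate 3 and none in the others.

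The order of the members changed between the groups. In the controls Bid stood highest at 64.45 FPKM, followed by Bak1 at 51.14, Mcl1 at 46.24, Bcl2 at 38.37 and Bcl2l1 at 36.61 FPKM, and only the last pair overlapped among its samples. In the shCTCF group the order was Bcl2l1 at 112.2, Mcl1 at 107.2, Bcl2 at 77.17, Bak1 at 51.12 and Bid at 32.67 FPKM, with overlap between Bcl2l1 and Mcl1. The place of Bcl2 above Bak1 in the shCTCF group rests on the accession NM_177410, described further on, which made up 26.77 of its 77.17 FPKM. The main accession NM_009741 alone was at 50.40 ± 1.45 FPKM, and its samples overlapped those of Bak1. Bcl2l11, Bad and Bmf followed in that order in both groups, without overlap between neighbours.

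The summed level of the 4 anti-apoptotic members was 122.2, 118.4 and 123.1 FPKM in the controls and 307.4, 293.1 and 289.1 FPKM in the shCTCF samples (121.2 ± 2.46 and 296.6 ± 9.63, a ratio of 2.45). Over these 4 genes, Bcl2l1 made up 30.2% of the sum in the controls and 37.8% in the shCTCF group, Bcl2 31.6% and 26.0%, and Mcl1 38.2% and 36.2%. Without NM_177410 the sum in the shCTCF group was 269.8 ± 10.3 FPKM, and the shares there were 41.5% for Bcl2l1, 18.7% for Bcl2 and 39.8% for Mcl1. The 5 BH3-only members, in contrast, summed to 89.2, 93.1 and 90.1 FPKM in the controls and to 68.7, 72.6 and 73.8 FPKM in the shCTCF samples. The quotient of the first sum over the second was therefore 1.37, 1.27 and 1.37 in the controls, against 4.48, 4.04 and 3.92 in the shCTCF samples, or 4.1, 3.67 and 3.54 without NM_177410. It depends on which BH3-only genes are summed. With the other family genes included, 9 anti-apoptotic genes over 8 BH3-only genes gave 0.746, 0.642 and 0.744 in the controls, against 1.13, 1.12 and 1.06 in the shCTCF samples, with a BH3-only sum of 172.0 ± 11.3 and 271.7 ± 5.54 FPKM. These sums describe mRNA per transcript length and were not tested.

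On counts, 5 of the 10 members passed the filter on low counts, and 4 passed the edgeR test, with Mcl1, Bcl2l1 and Bcl2 higher and Bid lower. Over all 7341 genes tested on counts, 69.1% passed, 34.8% as higher and 34.3% as lower. At 2-fold or more, 2 members were higher on counts, against 18.7% of all genes (32.7% in either direction), and the groups did not overlap in all 5 tested members, against 71.3% of all genes. Each of these numbers includes Bcl2l1, which passed the filter only through the shCTCF group. Its call and its lack of overlap on counts therefore add no support. The fifth tested member, Bcl2l11, pointed the other way on counts than on FPKM, at -0.63 (SE 0.28, adjusted p = 0.059, edgeR). With the library sizes alone as scaling its value was -0.80 with an adjusted p of 0.022.

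**Figure D2:**
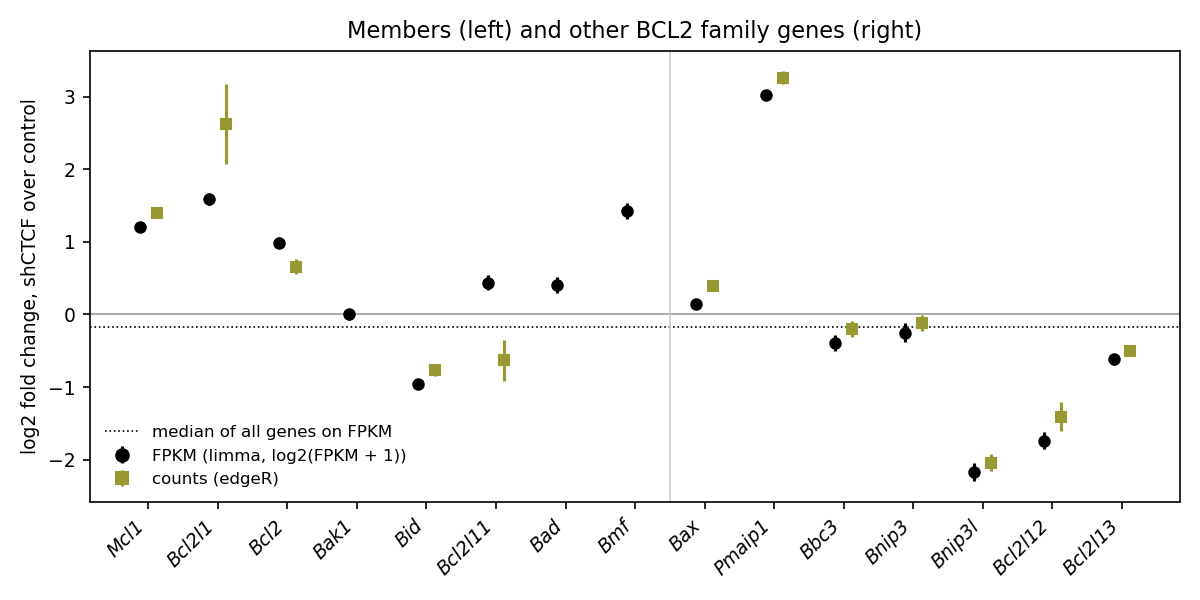
Log2 fold change (shCTCF over control) of the tested members, left, and of other BCL2 family genes, right, with SE bars, on FPKM (circles) and on counts where the gene was tested (squares); the dotted line is the median of all genes on FPKM at -0.17. Both tables agree in sign for each gene shown with both values except Bcl2l11, at 0.44 on FPKM and -0.63 on counts.

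Transcripts of the same member did not always move together. The 10 members have 25 RefSeq accessions, of which 13 had a mean of at least 1 FPKM and 7 passed a limma fit over 13029 accessions, 6 as higher and 1 as lower, against 52.6% of all accessions (20.5% higher, 32.1% lower). The groups did not overlap in 9 of the 13, against 63.1% of all accessions. Both counts include NM_177410 of Bcl2, which was listed at 0 in every control and passed the filter only through the shCTCF group. Its call and its lack of overlap therefore add no support, and its own bases do not show the rise, as described below. The division of FPKM among accessions was estimated by the authors' software, and some accessions were listed at 0 in part of the replicates of a group only.

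For Bcl2l1 the FPKM table placed most of the rise on the transcript from the inner start. NM_001289716, which begins 1011 bases inside the outermost start, was at 15.6, 18.3 and 23.4 FPKM in the controls and at 84.2, 86.0 and 70.5 FPKM in the shCTCF samples (log2 fold change 2.03, SE 0.16, adjusted p = 0.00019, limma). NM_009743, from the outermost start, was at 19.2, 19.7 and 13.7 FPKM in the controls and at 37.2, 24.3 and 21.2 FPKM in the shCTCF samples, and it did not pass the test (0.60, SE 0.24, adjusted p = 0.084, limma). The difference between these changes was not tested. Fragments assigned to the 126 bases that only NM_009743 holds numbered 3, 0 and 1 in the controls, against 11, 7 and 10 in the shCTCF samples, so that these fragments of the outer start were also more numerous in each shCTCF sample than in any control.

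For Bcl2 most of the rise lay on its shorter accession, which took 69.0% of the 38.81 FPKM between the group means. The main accession NM_009741 went from 38.37 ± 3.55 to 50.40 ± 1.45 FPKM (log2 fold change 0.39, SE 0.08, adjusted p = 0.009, limma). The shorter NM_177410, which has 1 exon, was listed at 0 in every control and at 26.1, 26.5 and 27.7 FPKM in the shCTCF samples, or 33.5%, 35.1% and 35.5% of the summed level of Bcl2. Yet the 140 exon bases that only NM_177410 holds had 13, 0 and 9 fragments in the controls, against 2, 3 and 8 in the shCTCF samples, which do not show that rise. With the main accession alone, the ratio of 2.01 given above for Bcl2 is thus not reached.

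For Bcl2l11 the counts rest on 2 stretches. One is the first exon of NM_001284410, an accession that begins at an inner start and ends early, and no other accession holds this exon (chr2:127953311-127953548 in mm9, 238 bases). The other is a stretch of 168 bases inside the second exon of NM_207680, which begins at the outer start. In the inner first exon there were 20, 8 and 23 fragments in the controls, against 0, 3 and 4 in the shCTCF samples, or 3.05, 4.74 and 3.27 CPM on the total counts against 0, 0.56 and 0.59 CPM, where a count of 0 allows up to 0.51 CPM. Every control lay above every shCTCF sample, with means of 3.69 ± 0.92 and 0.38 ± 0.33 CPM. In the stretch of the second exon there were 11, 3 and 12 fragments in the controls, against 17, 11 and 18 in the shCTCF samples, and here the controls were the lower group, at 1.72 ± 0.05 against 2.54 ± 0.42 CPM. For each stretch the exact two-sided permutation test gave p = 0.1, the smallest that 20 arrangements of 3 against 3 samples allow. The outer first exon is shared by 4 accessions and was not counted, so the counts hold no measure of the outer start and give no share of one start against the other. Limits from a count of 0 cover counting error only.

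The FPKM table did not list NM_001284410 above 0 in any sample. It placed the early-ending form with NM_001291016, which shares its last exon, at 4.65, 0 and 4.73 FPKM in the controls and at 0 in the shCTCF samples (adjusted p = 0.11, limma). The long accession NM_207680 went from 9.43 ± 2.58 to 14.80 ± 1.05 FPKM (log2 fold change 0.63, SE 0.18, adjusted p = 0.032, limma), and NM_207681 from 1.549 ± 1.42 to 4.64 ± 1.53 FPKM (adjusted p = 0.087, limma). The countable 5.7% of the 7137 exon bases of Bcl2l11 are those 238 and 168 bases, so the counts of the gene are the sum of these fragments alone. The inner window printed above for Bcl2l11 is the one before NM_001284410.

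**Figure D3:**
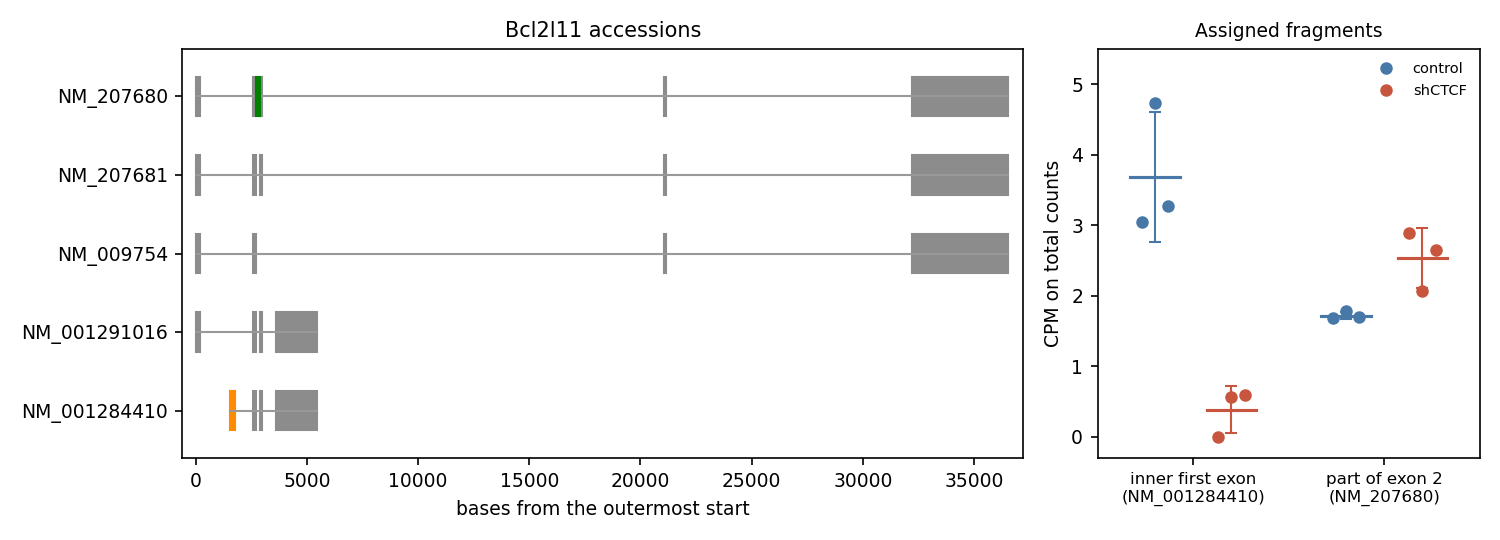
Left, exons (boxes) of the 5 Bcl2l11 accessions against the distance in bases from the outermost start, with the exon that only NM_001284410 holds in orange and the stretch that only NM_207680 holds in green. Right, fragments in these stretches as CPM on the total counts, with points for samples, horizontal bars for means and vertical bars for SD; the inner first exon lies at 3.05 to 4.74 CPM in the controls and at 0 to 0.59 CPM in the shCTCF samples.

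For Bmf the accession that carried the signal changed between replicates. NM_138313 was at 3.85, 4.12 and 0.493 FPKM in the shCTCF samples while NM_001331221 was at 0.573, 0 and 4.07, so that only their sum was steady, and NM_138313 alone did not pass the test (1.15, SE 0.58, adjusted p = 0.15, limma). The rise of Bmf therefore rests on the sum over its accessions. Mcl1 and Bid each have 1 accession, for Bak1 all FPKM was placed on 1 accession, and for Bad this was so in all samples except control replicate 3.

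**Figure D4:**
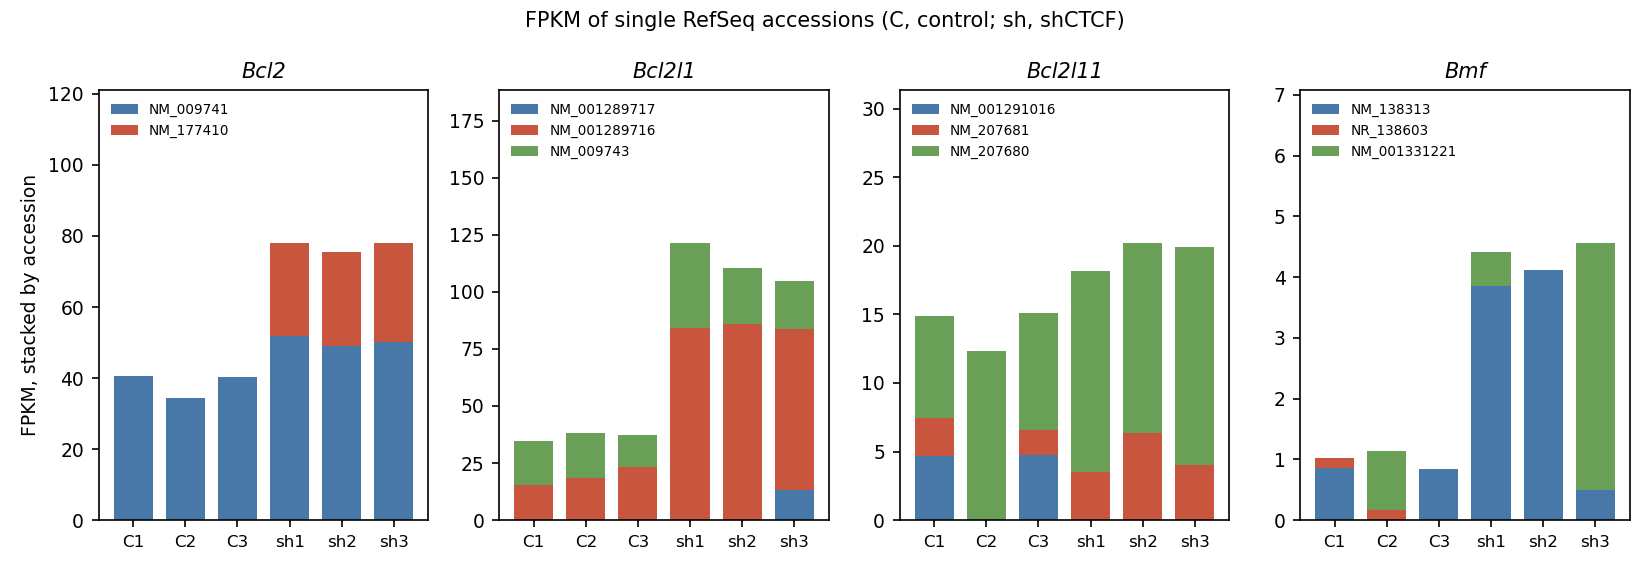
FPKM of single RefSeq accessions of Bcl2, Bcl2l1, Bcl2l11 and Bmf, stacked to the level of the gene in each sample. The added height in the shCTCF samples lies mostly on NM_001289716 for Bcl2l1, lies mostly on NM_177410 for Bcl2, and sits on different accessions in different replicates for Bmf.

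Of the 16 other BCL2 family genes, 7 were tested on FPKM and 5 passed, 1 higher and 4 lower, against 73% of all genes (28.8% higher, 44.2% lower), with a median log2 fold change of -0.39 against -0.17. With the samples scaled to the same median, 2 were higher and 3 lower, where 49.1% of all calls were higher. On counts 7 of 9 tested passed, 4 higher and 3 lower, against 69.1% of all genes (34.8% higher, 34.3% lower). The higher ones include Bcl2a1a and Bcl2a1d, which passed the filter on low counts only through the shCTCF group. The gene that rose on FPKM was Pmaip1, which encodes NOXA, the BH3-only partner that binds MCL1 and promotes its degradation. It was at 18.8, 16.7 and 18.0 FPKM in the controls and at 161.9, 144.4 and 150.4 FPKM in the shCTCF samples, 8.53 times as high (log2 fold change 3.02, SE 0.07, adjusted p = 5.9e-08, limma), a ratio larger than that of any of the 10 members. Its counts gave 3.26 (SE 0.09, adjusted p = 2.8e-11, edgeR). Pmaip1 passed Mcl1 in level, at 152.2 ± 8.87 against 107.2 ± 0.796 FPKM in the shCTCF group, whereas in the controls it stood below, at 17.85 ± 1.05 against 46.24 ± 0.683 FPKM.

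Bax, the second effector, was at 95.7, 104.3 and 98.6 FPKM in the controls and at 107.0, 110.6 and 112.8 FPKM in the shCTCF samples. It did not pass on FPKM (log2 fold change 0.14, SE 0.06, adjusted p = 0.061, limma) but did on counts (0.39, SE 0.07, adjusted p = 0.00039, edgeR) and with the samples scaled to the same median (0.33, adjusted p = 0.0022, limma) or without control replicate 2 (0.18, adjusted p = 0.0074, limma). Bbc3, which encodes the BH3-only protein PUMA, was at 63.32 ± 10.3 and 47.75 ± 2.98 FPKM. It passed on FPKM (-0.39, SE 0.11, adjusted p = 0.016, limma), but not on counts (-0.20, adjusted p = 0.13, edgeR) nor after scaling to the same median (-0.21, adjusted p = 0.15, limma) or without shCTCF replicate 1 (-0.34, adjusted p = 0.064, limma).

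The BNIP3 proteins act mainly in the removal of mitochondria. Bnip3l fell from 89.6, 64.4 and 88.1 FPKM to 16.3, 17.04 and 17.6 FPKM (log2 fold change -2.17, SE 0.13, adjusted p = 3.2e-06, limma), and on counts by 2.04 on the log2 scale (adjusted p = 2.0e-08, edgeR). Bnip3 was at 382.9, 272.4 and 388.5 FPKM in the controls and at 297.9, 284.6 and 281.8 FPKM in the shCTCF samples and did not pass (-0.25, adjusted p = 0.12, limma). Without control replicate 2, the low sample, Bnip3 passed at -0.42 (adjusted p = 5.3e-05, limma).

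The homologues Bcl2l12 and Bcl2l13 were both lower. Bcl2l13, the neighbour of Bid, went from 12.76 ± 0.364 to 7.98 ± 0.105 FPKM (-0.62, SE 0.07, adjusted p = 0.00015, limma), and Bcl2l12 from 8.58 ± 1.34 to 1.85 ± 0.0295 FPKM (-1.74, SE 0.12, adjusted p = 7.3e-06, limma). Bcl2l12 shares 179 exon bases with Gm15545 on the other strand.

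The Bcl2a1 genes, which encode the anti-apoptotic protein A1, are near-identical copies on chromosome 9, so their separate values are uncertain. Bcl2a1a had 2, 0 and 4 fragments in the controls, against 12, 9 and 14 in the shCTCF samples (adjusted p = 0.0015, edgeR), and Bcl2a1d 1, 0 and 3 against 16, 11 and 11 (adjusted p = 0.00059, edgeR). Both passed the filter on low counts only through the shCTCF group, so their calls add no support. Bcl2a1b had none in the controls, against 11, 5 and 5 in the shCTCF samples. All were at or under 2.031 FPKM. Bok, Hrk and Bcl2a1c were listed at 0 FPKM in all samples, and Bcl2l10, Bcl2l14 and Bcl2l15 were too low to be tested on FPKM.

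Upstream of Bid lie the death receptor genes. Of 14 listed genes 12 were tested and 10 passed on FPKM, 8 higher and 2 lower, against 73% of all genes (28.8% higher, 44.2% lower), with a median log2 fold change of 0.65. On counts 6 of 8 tested passed, all 6 higher, against 69.1% of all genes (34.8% higher, 34.3% lower). Fas, the receptor that recruits FADD and caspase-8, went from 1.876, 1.459 and 1.696 FPKM to 35.6, 30.2 and 31.4 FPKM, 19.3 times as high (log2 fold change 3.64, SE 0.10, adjusted p = 9.9e-08, limma). Tnfsf10, which encodes the ligand TRAIL, went from 0.602, 0.292 and 0.527 FPKM to 12.3, 10.0 and 10.0 FPKM (3.00, SE 0.13, adjusted p = 8.3e-07, limma). Its control mean of 0.474 FPKM was under the filter of 1 FPKM, which Tnfsf10 passed only through the shCTCF group. Casp8, whose protein cuts BID, was higher as well (1.10, adjusted p = 3.4e-06, limma). So were Ripk1 (1.09, adjusted p = 3.2e-06, limma) and Mlkl (1.22, adjusted p = 1.3e-05, limma). The largest falls were those of Ripk3, a kinase of necroptosis, at -0.52 (SE 0.08, adjusted p = 0.00059, limma), and of the adaptor Fadd at -0.35 (SE 0.11, adjusted p = 0.022, limma). Neither passed on counts (Ripk3 -0.05, SE 0.39, adjusted p = 0.96, and Fadd -0.16, adjusted p = 0.29, edgeR). Ripk3 had only 5 to 15 assigned fragments per sample, so its counts are hardly a second measurement. On FPKM, Fadd did not pass without control replicate 1, shCTCF replicate 1 or shCTCF replicate 2 (adjusted p = 0.05, 0.068 and 0.085, limma), nor with the samples scaled to the same median (-0.20, adjusted p = 0.15, limma).

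Downstream of the family lie the mitochondrial death genes. Of 16 listed genes 14 were tested and 12 passed on FPKM, 4 higher and 8 lower, against 73% of all genes (28.8% higher, 44.2% lower), with a median of -0.25 against -0.17 over all genes. With the samples scaled to the same median, 4 were higher and 6 lower, where 49.1% of all calls were higher. On counts 5 of 9 tested passed, 2 higher and 3 lower, against 69.1% of all genes (34.8% higher, 34.3% lower). The median on counts was 0.06 against -0.02 over all genes. The largest falls were those of Htra2, a protease released from mitochondria, at 37.2, 37.6 and 39.4 FPKM in the controls and 0, 10.6 and 7.55 FPKM in the shCTCF samples (-3.08, SE 0.81, adjusted p = 0.0096, limma), and of the nuclease gene Endog (-1.71, SE 0.14, adjusted p = 1.6e-05, limma). For Htra2 the counts were 66, 74 and 93 fragments in the shCTCF samples, so that none of them lacked it. Without shCTCF replicate 1, listed at 0, the value on FPKM was -1.97 (adjusted p = 7.1e-05, limma), and the counts gave -2.45 (SE 0.12, adjusted p = 4.7e-09, edgeR). Apaf1, the scaffold of the apoptosome, was higher, from 7.72, 5.80 and 7.26 FPKM to 14.8, 14.1 and 14.8 FPKM (0.98, SE 0.11, adjusted p = 9.2e-05, limma), as was Dffa, the inhibitor of the caspase-activated DNase (1.18, SE 0.14, adjusted p = 0.00012, limma).

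Among the 5 IAP genes, which encode inhibitors of caspases, 3 passed on FPKM, 1 higher and 2 lower, against 73% of all genes (28.8% higher, 44.2% lower). With the samples scaled to the same median 1 was higher and 1 lower, where 49.1% of all calls were higher. Birc3, an NF-kB target, went from 12.26 ± 1.54 to 31.85 ± 1.10 FPKM (1.31, SE 0.10, adjusted p = 9.5e-06, limma). Birc5, which encodes survivin and serves chromosome segregation in mitosis, went from 88.14 ± 1.40 to 29.64 ± 1.90 FPKM (-1.54, SE 0.07, adjusted p = 8.2e-07, limma). Birc6 passed narrowly at -0.19 (adjusted p = 0.04, limma), and on counts it was at -0.01 (adjusted p = 0.88, edgeR). On FPKM, Birc6 kept the call only when control replicate 2 was the sample left out, and the adjusted p (limma) was 0.13 without control replicate 1, 0.071 without control replicate 3, and 0.088, 0.098 and 0.11 without shCTCF replicates 1, 2 and 3.

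Of 21 partners and regulators of the family, 20 were tested and 15 passed on FPKM, 11 higher and 4 lower, against 73% of all genes (28.8% higher, 44.2% lower), with a median of 0.23. On counts 13 of 19 tested passed, 9 higher and 4 lower, against 69.1% of all genes (34.8% higher, 34.3% lower). Ywhag, whose protein holds phosphorylated BAD in the cytosol, rose by 0.91 (SE 0.06, adjusted p = 6.8e-06, limma). The other listed Ywha genes were divided. Ywhah was higher (0.64, adjusted p = 0.00011, limma), and Ywhab and Ywhaz did not pass. Ywhae (-0.61, adjusted p = 9.4e-05, limma) and Ywhaq (-0.86, adjusted p = 0.0051, limma) were lower. Pim3, a kinase of BAD, was at -1.05 (SE 0.10, adjusted p = 4.3e-05, limma). Its listed relatives Pim1 (0.77, adjusted p = 1.4e-05, limma) and Pim2 (0.81, adjusted p = 2.2e-05, limma) were higher. Huwe1, a ubiquitin ligase of MCL1, fell from 45.3, 48.9 and 44.6 FPKM to 24.2, 24.0 and 24.3 FPKM (-0.91, SE 0.07, adjusted p = 9.4e-06, limma). Ddit3, a stress factor that acts on several BH3-only genes, was at 1.01 on FPKM (SE 0.12, adjusted p = 0.00017, limma) but at 0.20 on counts (adjusted p = 0.53, edgeR), with 7 to 33 fragments per sample.

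**Figure D5:**
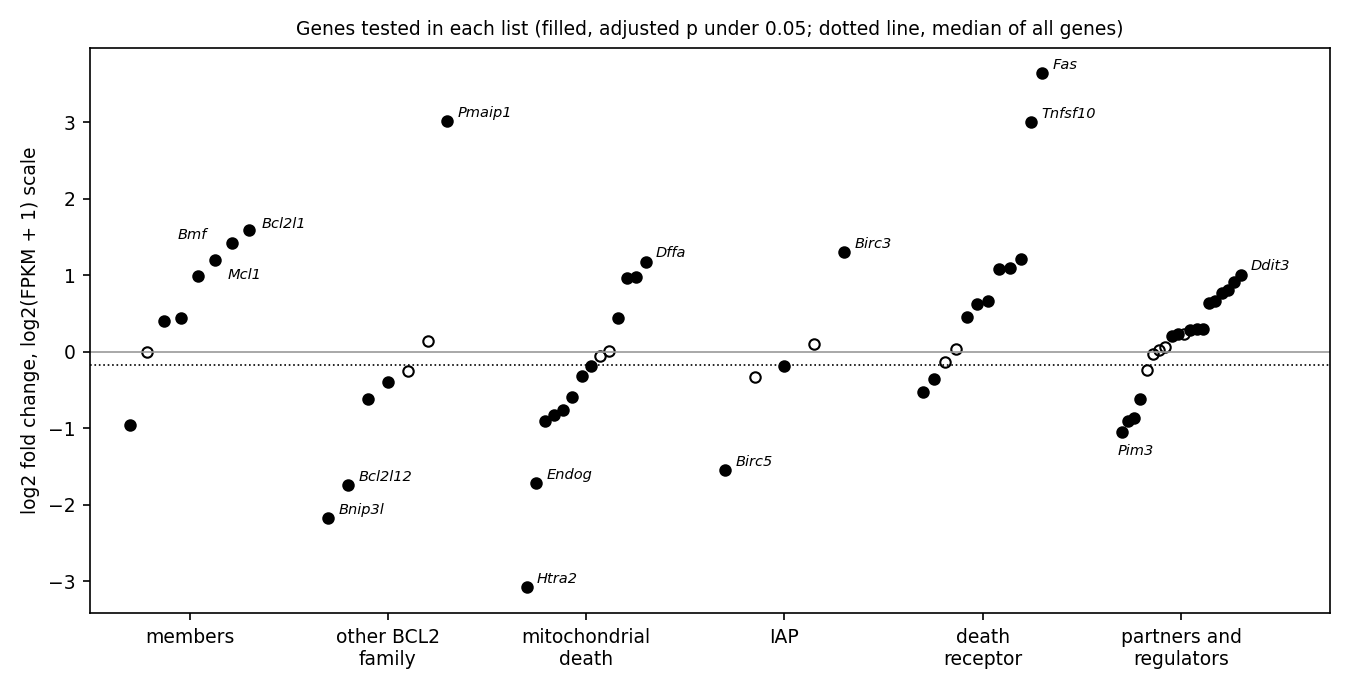
Difference of mean log2(FPKM + 1), shCTCF minus control, for each tested gene of the members and of the lists around them, ordered by value within a list; filled points have an adjusted p under 0.05 (limma), the solid line is 0 and the dotted line the median of all genes at -0.17. The members lie between Bid at -0.96 and Bcl2l1 at 1.59, and Fas at 3.64, Pmaip1 at 3.02 and Tnfsf10 at 3.00 exceed every member.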

How the data were processed

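RNA-seq libraries of 3 control and 3 shCTCF samples were aligned by the authors to mm9 with HISAT2. From the alignments the authors obtained the deposited counts with featureCounts 1.6.2, as fragments per RefSeq accession, without use of the strand, and fragments on exons of several accessions were not assigned. The deposited FPKM values were calculated by the authors with Cufflinks 2.2.1 and RefSeq annotation and are normalized for depth.

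Accessions were matched to symbols with a RefSeq gene table of assembly GRCm38.p6 (41685 of 41876 FPKM rows and 41186 of 41388 count accessions), used for names only, and values were summed per symbol. At most 0.603% of a sample's counts had no symbol. No value column was without a sample (0 columns). Gene coordinates are in mm9, as the count table gives them, with the first base as 1.

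FPKM were tested as log2(FPKM + 1) with limma 3.58.1 (eBayes with trend) in genes that averaged 1 FPKM or more, and the count data with edgeR 4.0.16 in R 4.3.3 (TMM scaling, filterByExpr, quasi-likelihood test). Benjamini-Hochberg adjustment ran over every gene in a fit, with a threshold of 0.05. Both tests were also run on simulated data in which a small share of genes was changed, equally up and down. These data differ from that setting, so the simulation does not cover the scaling of the samples. A floor of 3 counts was 0.426 to 0.564 CPM in 5 samples and 1.779 in control replicate 2. Replicates differed by more than counting noise (chi-square per degree of freedom 2.07 to 8.17 within groups, 93.02 to 212.64 between groups).

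The members and lists were chosen with earlier results of these data known. The genes named are all members, every tested gene of the family list, the 2 highest and 2 lowest called genes by log2 fold change on FPKM of each remaining list, and Ctcf. A few other genes of the death receptor list and of the partners and regulators are given beside them. Alternatives were a pseudocount of 0.1, other filters, scaling to the same median, quantile normalization, the accession with the highest mean, DESeq2 1.42.0, library size only, a replicate block, and the omission of each replicate.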

Additional observations from a re-analysis of the deposited data

How the results depend on the processing

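Across 124 comparisons of a summary count or of Ctcf with an alternative, 123 stayed within 1.5 times the count or, for Ctcf, kept sign and call. For the summary counts only the number called was compared, and the split into higher and lower could shift. The other BCL2 family genes called on FPKM were 1 higher and 4 lower, but 2 higher and 3 lower with the same median. The exception was the count of other BCL2 family genes called on FPKM, which went from 5 to 8 (4 higher, 4 lower) with no filter on low values, since 13 rather than 7 genes were then tested. Of 438 comparisons for single genes, 408 changed neither sign nor call, 20 lost the call, 6 gained it and 4 turned sign. The 4 were all Bak1 on FPKM, at -0.02 without control replicate 1, -0.04 without control replicate 3, -0.01 without shCTCF replicate 1 and -0.02 without shCTCF replicate 2 (range over all 6 omissions -0.04 to 0.06), and none of these passed the threshold. Members called on FPKM numbered 6 or 7 under every alternative: Bad was lost without shCTCF replicate 3, Bmf with the accession of the highest mean (log2 fold change 1.15, adjusted p = 0.1, limma), and Bmf was not tested with a mean of at least 5 FPKM. Members called on counts numbered 4 or 5, and over all genes on FPKM the median change was -0.17 as deposited, -0.08 after quantile normalization and -0.01 with the same median. Over all genes tested on FPKM, 39.5% of calls were higher as deposited and 49.1% with the same median. The replicate numbers do not pair the samples (correlations of deviations -0.041, 0.018 and 0.039 for the same number), and with the replicate block 7 members were called on FPKM and 4 on counts, 5 other family genes, 11 mitochondrial death genes, 2 IAP genes, 9 death receptor genes and 14 partners and regulators on FPKM, and 6 member accessions, with Ctcf at -5.12. Depth limits the count results most in control replicate 2 and in members with few countable bases.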
